A study of Mus musculus with 6 samples.

Results

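The Hsd3b genes encode the 3beta-hydroxysteroid dehydrogenases, and they were followed here in liver RNA of male mice fed alcohol or a control diet. Every array probe whose gene name begins with Hsd3b was taken and kept apart from the others, which gave 9 of the 41174 probes on the array, for 7 of the 27962 gene or transcript names. Hsd3b2 had 3 probes, and Hsd3b1, Hsd3b3, Hsd3b4, Hsd3b5, Hsd3b6 and Hsd3b7 had 1 each. The family was picked because of its low alcohol over control ratios in these arrays, so the ratios and levels of the 9 probes are described below without a test.

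All animals were 129/Sv male mice, 6 to 8 weeks old at the start, that first received the Lieber-DeCarli liquid control diet and then either that diet with 4% ethanol or an isocaloric diet in which maltose dextran replaced the ethanol. Livers were collected after 1, 2 and 4 months, so a later month also means older mice in both groups. RNA of 6 mice per group was pooled, which left 1 alcohol pool and 1 control pool at each month, and no value for single mice. The pair of pools of a month was hybridized on 2 two-colour Agilent arrays with the dyes exchanged. These 2 arrays hold the same RNA, so the SD between them (n = 2 arrays) is a technical error and says nothing of the spread between mice.

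Enzymes of this family act on the hydroxyl or keto group at the third carbon of the steroid ring. The dehydrogenase members, working with an isomerase activity of the same protein, turn pregnenolone into progesterone and dehydroepiandrosterone into androstenedione in the adrenal and gonad. In rodents other members, among them Hsd3b4 and Hsd3b5, mainly run as keto-steroid reductases that inactivate androgens such as dihydrotestosterone, and Hsd3b5 is known as an enzyme of the adult male liver. Hsd3b7 is a more distant member that acts in bile acid synthesis.

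In the RefSeq annotation of assembly GRCm38.p6, 6 of the 7 genes lie in a cluster on chromosome 3 in the order Hsd3b4, Hsd3b5, Hsd3b2, Hsd3b3, Hsd3b6 and Hsd3b1. The stretch from Hsd3b4 to Hsd3b1 holds 13 annotated genes, of which 7 are protein-coding and 6 are pseudogenes. Hsd3b7 lies apart from them on chromosome 7. Because the family arose by duplication, a probe may also capture RNA of a near copy, and the probe sequences were not used here to examine this.

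The window before the start site was compared within the family, and 2 of these windows are shown because Hsd3b5 had the lowest ratios of the array and the windows of Hsd3b3 were those most like it. Each is the 250 bases upstream of the start site on the minus strand, 5′ to 3′, from RefSeq (GRCm38.p6). Hsd3b5 is taken from chr3:98645535-98645784 and Hsd3b3 from chr3:98763129-98763378. Capitals mark the runs of 8 or more bases that are identical in the local alignment of the 2 windows.
Hsd3b5: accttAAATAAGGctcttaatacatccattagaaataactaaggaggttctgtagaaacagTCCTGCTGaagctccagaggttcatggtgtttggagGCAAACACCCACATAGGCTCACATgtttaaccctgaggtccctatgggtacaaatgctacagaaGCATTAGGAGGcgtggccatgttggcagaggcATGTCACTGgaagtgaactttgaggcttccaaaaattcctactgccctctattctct
Hsd3b3: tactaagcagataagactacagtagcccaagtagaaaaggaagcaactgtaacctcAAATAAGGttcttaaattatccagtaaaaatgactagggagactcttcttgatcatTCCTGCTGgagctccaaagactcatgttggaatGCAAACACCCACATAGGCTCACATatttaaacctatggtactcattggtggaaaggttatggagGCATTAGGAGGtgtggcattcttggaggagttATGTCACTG

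The 2 windows aligned over 204 columns with 154 identical bases (75.5%), and the capitals form 5 runs of which the longest has 24 bases. Hsd3b3 has a further annotated start site, whose full window was 99.3% identical to that of the one shown. Over full windows, which reach 50 bases past the start site, Hsd3b5 had 75.8% identity with the one shown and 76.6% with the further one, both over 252 columns. A stretch of 81 columns with 75.3% identity was shared by the full windows of Hsd3b5 and Hsd3b2. Against Hsd3b1, Hsd3b4, Hsd3b6 and Hsd3b7 the full Hsd3b5 window aligned over at most 14 columns.

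Hsd3b4, the other member with ratios past 2-fold at more than 1 month, is shown as well because its window holds the letters of a motif that was searched. Its 250 bases upstream of the start site are those of the minus strand at chr3:98510568-98510817 (GRCm38.p6), and the capitals mark the match to ATCAAT, read on the other strand, 132 bases before the start site.
Hsd3b4: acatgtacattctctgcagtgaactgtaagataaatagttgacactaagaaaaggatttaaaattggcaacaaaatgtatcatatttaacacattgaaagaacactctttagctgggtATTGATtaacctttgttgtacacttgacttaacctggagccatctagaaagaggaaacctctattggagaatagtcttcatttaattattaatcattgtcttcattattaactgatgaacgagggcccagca

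The letters searched on both strands were TTCNNNGAA (the core bound by STAT5), ATCAAT (bound by Onecut1 and Cux2) and TGTTTAC (bound by Foxa proteins), all of which bind near sex-dependent liver genes. The TTCNNNGAA letters occurred in 8.30% of 32851 mouse windows of the same length and, in this family, in those of Hsd3b1 and Hsd3b7. ATCAAT occurred in 7.54% of all windows and in the family in that of Hsd3b4. TGTTTAC occurred in 3.65% of all windows and in none of the Hsd3b windows. These are matches of letters in a short window and not binding sites, and a window without them says nothing about the factor.

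All 9 probes were well above background in both channels of all 6 arrays, and none was saturated. Across the arrays and channels 73.3% to 90.3% of spots were well above background. Over the 27900 probes above background in every channel, the dye-swapped arrays correlated with a Pearson r of 0.16, -0.30 and -0.32 in the order of the months. At 2 and 4 months the part of the ratios that went with the dye had an SD of 0.25 and 0.31, more than the 0.19 and 0.22 of the averaged ratios of these probes. The SD of the averaged ratios over the 37922 probes above background at least once was 0.19, 0.23 and 0.27, and their median lay between -0.0086 and 0.0091. The 1-month arrays lay on one slide and the others on another, so for levels the step from 1 month to 2 or 4 months and the change of slide cannot be told apart.

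**Figure D1:**
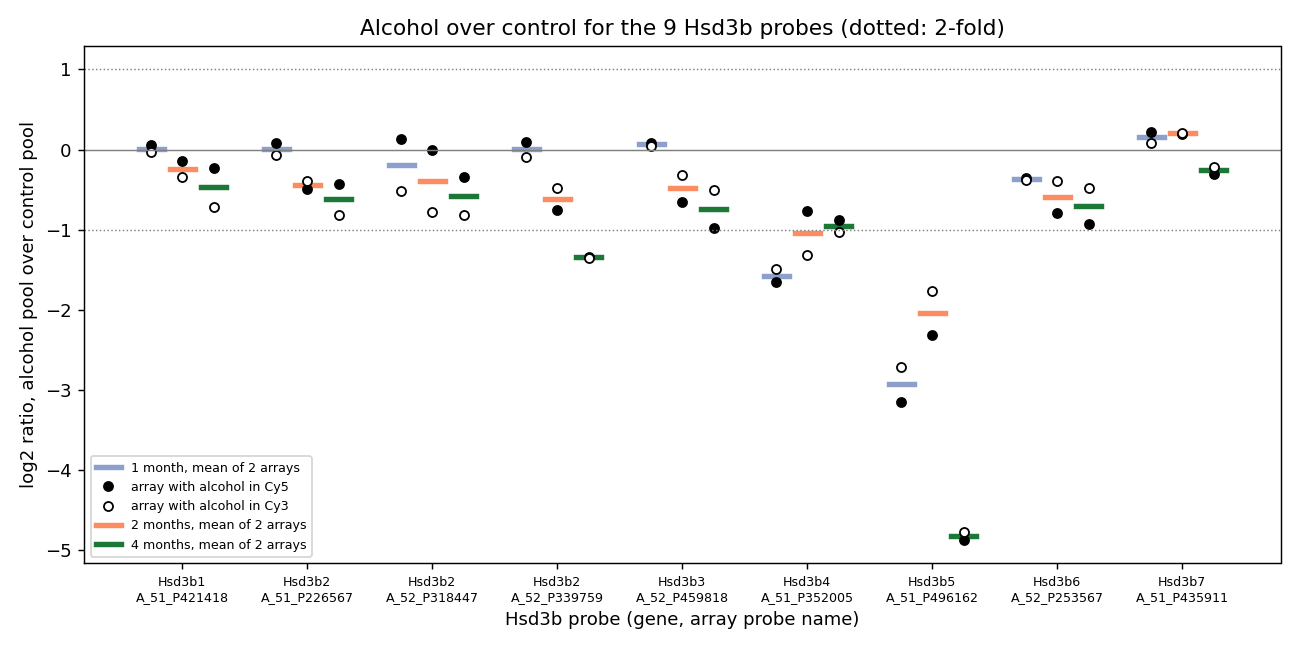
Log2 ratio of the alcohol pool over the control pool (y axis) for each Hsd3b probe (x axis) at 1, 2 and 4 months. Filled and open points are the array with alcohol in Cy5 and in Cy3, bars are their mean, and dotted lines mark 2-fold. Hsd3b5 lies between -2.04 and -4.83 and Hsd3b4 between -0.95 and -1.58, while the other probes lie between -1.34 and 0.20.

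Hsd3b5, the reductase of the male liver, had the lowest averaged ratio of all 37922 probes at every month. The control pool gave processed signals of 7036 (Cy5) and 9436 (Cy3) at 1 month, of 3804 and 5536 at 2 months, and of 3191 and 5972 at 4 months. The alcohol pool gave 1064 and 1068 at 1 month, then 1112 and 1119, and in the end, at 4 months, 204 and 116. Every alcohol signal was thus below every control signal, and the 4-month alcohol pool stood far below the other alcohol pools.

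The log2 ratio of alcohol over control for Hsd3b5 was -3.15 with alcohol in Cy5 and -2.72 with alcohol in Cy3 at 1 month, a mean of -2.93 ± 0.30 (SD, n = 2 arrays) or 7.64-fold lower. At 2 months the arrays gave -2.32 and -1.77, a mean of -2.04 ± 0.39 (SD, n = 2 arrays) or 4.11-fold lower. At 4 months they gave -4.87 and -4.78, a mean of -4.83 ± 0.066 (SD, n = 2 arrays) or 28.4-fold lower. The arrays of the 3 months did not overlap, and the order from the smallest to the largest difference was 2, 1 and 4 months. The ratio differed by 0.89 between 2 and 1 months and by -2.79 between 4 and 2 months. Over all probes the same differences had an SD of 0.29 in both cases. That SD does not measure the spread between mice, since each month has 1 pair of pools.

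On single arrays Hsd3b5 ranked lowest of all probes on both arrays at 1 month and on both at 4 months. At 2 months it ranked 3 with alcohol in Cy5 and 59 with alcohol in Cy3. The ranking at 2 months therefore depended on the average over both dyes, while the side of 2-fold did not.

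The level of Hsd3b5 in a pool is given as log2 of its signal over the 75th percentile of the channel, averaged over both dyes. The control pools had levels of 2.93 ± 0.24, 1.62 ± 0.12 and 0.90 ± 0.39 (SD, n = 2 dyes) at 1, 2 and 4 months. The alcohol pools had levels of -0.0060 ± 0.062, -0.42 ± 0.27 and -3.92 ± 0.33 (SD, n = 2 dyes). From highest to lowest the order was control at 1, 2 and 4 months and then alcohol at 1, 2 and 4 months, and no neighbours in this order overlapped between their dyes. The closest neighbours, alcohol at 1 and at 2 months, lie on different slides, and their order depended on the scaling. Their log2 difference, 2 over 1 month, was -0.41 with the 75th percentile and 0.14 with the channel median as reference.

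Since 2 and 4 months were hybridized on the same slide, the pools of these months can be set side by side. In the alcohol pools Hsd3b5 was lower at 4 than at 2 months by a log2 difference of -3.50, a difference below which only 0.0659% of all probes lay. In the control pools the same difference was -0.72, with 5.84% of probes below it. The SD of these differences over all probes was 0.56 for alcohol and 0.53 for control pools, and 3.29% and 3.18% of all probes were at least 2-fold lower at 4 than at 2 months. Each difference is between 2 pools of different mice, also of different age, and has no biological replicate. Unscaled, the control signal of Hsd3b5 was lower at 4 than at 2 months in Cy5 (3191 and 3804) but higher in Cy3 (5972 and 5536). On the scaled levels the summed hepatocyte markers described below were also lower in the control pools, at 7.39 against 8.28, whereas the kidney markers were higher, at 3.24 against 2.98.

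**Figure D2:**
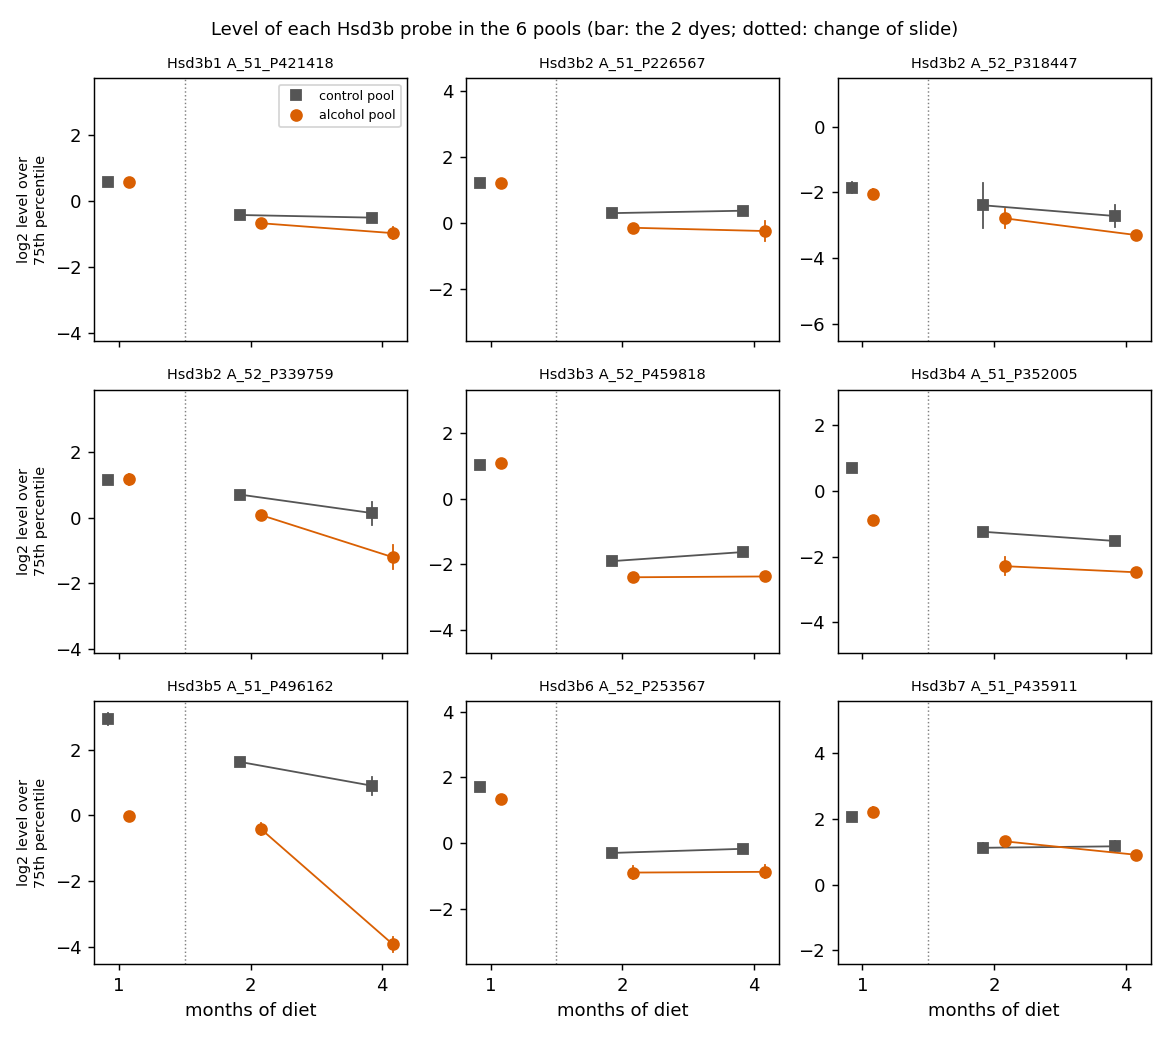
Level of each Hsd3b probe (y axis, log2 over the 75th percentile of the channel, each panel spanning the same range) in the control and alcohol pools at 1, 2 and 4 months (x axis). Points are means of both dyes, vertical bars join the values of the dyes, and the dotted line marks the change of slide. Hsd3b5 in the alcohol pool of 4 months, at -3.92, lies far below its other 5 pools, and Hsd3b3 is higher at 1 month in both pools.

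Hsd3b4, described in rodents as a keto-steroid reductase like Hsd3b5, had the next lowest ratios of the family at 1 and 2 months. Its control pools had levels of 0.69, -1.25 and -1.53 and its alcohol pools levels of -0.88, -2.29 and -2.48 at 1, 2 and 4 months. The log2 ratios of the 2 arrays were -1.66 and -1.49 at 1 month (mean -1.58 ± 0.12, SD, n = 2 arrays), -0.77 and -1.32 at 2 months (mean -1.04 ± 0.39) and -0.88 and -1.03 at 4 months (mean -0.95 ± 0.11). All 6 arrays were below 0, but the order of the months differed from that of Hsd3b5, with the largest difference at 1 month. Among all probes it ranked 6, 57 and 154 from the lowest. At 2 months only the array with alcohol in Cy3 was past 2-fold, and at 4 months the mean lay just short of it.

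The 3 probes of Hsd3b2, a dehydrogenase known from liver and kidney, gave different values. Probe A_52_P339759 had log2 ratios of 0.099 and -0.094 at 1 month (mean 0.0026), -0.75 and -0.49 at 2 months (mean -0.62 ± 0.19, SD, n = 2 arrays) and -1.34 and -1.35 at 4 months (mean -1.34 ± 0.0074, 2.54-fold lower). Probe A_51_P226567 had means of 0.0069, -0.44 and -0.62, and probe A_52_P318447 had means of -0.19, -0.39 and -0.58. At 4 months all 6 of these array values lay below 0, whereas only those of A_52_P339759 were past 2-fold. Probe A_52_P318447 was the least precise of the family at the earlier months, with an SD between its 2 arrays of 0.46 at 1 month and 0.55 at 2 months, and its arrays at 1 month had opposite signs. The control levels of A_52_P339759 were 1.16, 0.70 and 0.14 and its alcohol levels 1.16, 0.076 and -1.20, so its pools were level with each other at 1 month.

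Hsd3b3, a dehydrogenase of liver and kidney, had log2 ratios of 0.082 and 0.045 at 1 month (mean 0.063 ± 0.026, SD, n = 2 arrays), -0.66 and -0.31 at 2 months (mean -0.49 ± 0.24) and -0.99 and -0.50 at 4 months (mean -0.75 ± 0.34). Both arrays were above 0 at 1 month and both below 0 at the later months. Its level moved more between 1 month and the later months than between the diets. The control pools had levels of 1.01, -1.90 and -1.62 and the alcohol pools 1.08, -2.39 and -2.37 at 1, 2 and 4 months. The control pool was lower at 2 than at 1 month by a log2 difference of -2.91, with 2.79% of all probes lower still, and 29.4% of all probes were at least 2-fold lower in this comparison across slides. The Hsd3b3 probe was not past 2-fold between the diets at any month.

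Hsd3b6, a dehydrogenase known from placenta, skin and the outer adrenal cortex, had all 6 arrays below 0. Its mean log2 ratios were -0.37 ± 0.017, -0.59 ± 0.28 and -0.70 ± 0.32 (SD, n = 2 arrays) at 1, 2 and 4 months. Its levels were 1.70, -0.30 and -0.17 in the control pools and 1.33, -0.90 and -0.87 in the alcohol pools, so within each month the alcohol pool was the lower of the pair. As for Hsd3b3, the 1-month pools were above those of the later months, with a control log2 difference of -1.87 between 4 and 1 months.

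Hsd3b1, the dehydrogenase of adrenal and gonad, had mean log2 ratios of 0.0097 ± 0.065, -0.25 ± 0.14 and -0.47 ± 0.34 (SD, n = 2 arrays). Its 1-month arrays had opposite signs, and those of the later months were all below 0. Hsd3b7, the bile acid enzyme on chromosome 7, was the one member with a mean above 0 at 2 months. Its log2 ratios were 0.21 and 0.087 at 1 month (mean 0.15 ± 0.090, SD, n = 2 arrays), 0.20 and 0.21 at 2 months (mean 0.20 ± 0.0052) and -0.30 and -0.22 at 4 months (mean -0.26 ± 0.060).

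Counted over the family, 2 of 9 probes were at least 2-fold lower in alcohol at 1 month (Hsd3b5 and Hsd3b4), where 0.0949% of all probes were. At 2 months the same 2 probes were, against 0.182% of all probes. At 4 months 2 probes were, Hsd3b5 and A_52_P339759 of Hsd3b2, against 0.338% of all probes. No Hsd3b probe was 2-fold higher at any month, where 0.158%, 0.243% and 0.464% of all probes were. These shares stand beside the counts for scale only, because the family was chosen from the same ratios.

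Smaller ratios were shared by more of the family at the later months. Both arrays were below 0 for 3 of 9 probes at 1 month, 8 of 9 at 2 months and 9 of 9 at 4 months, while 23.8%, 17.6% and 17.5% of all probes had both arrays below 0. The 8 at 2 months include A_52_P318447 of Hsd3b2, whose arrays gave -0.0018 and -0.78, so its place there is uncertain. The median log2 ratio of the 9 probes was 0.0026, -0.49 and -0.70 at 1, 2 and 4 months. At 1 month the family thus held 2 probes far below the rest, and at 4 months all of its probes lay below 0. Probes of near copies may share targets, so the 9 probes are not independent measurements.

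**Figure D3:**
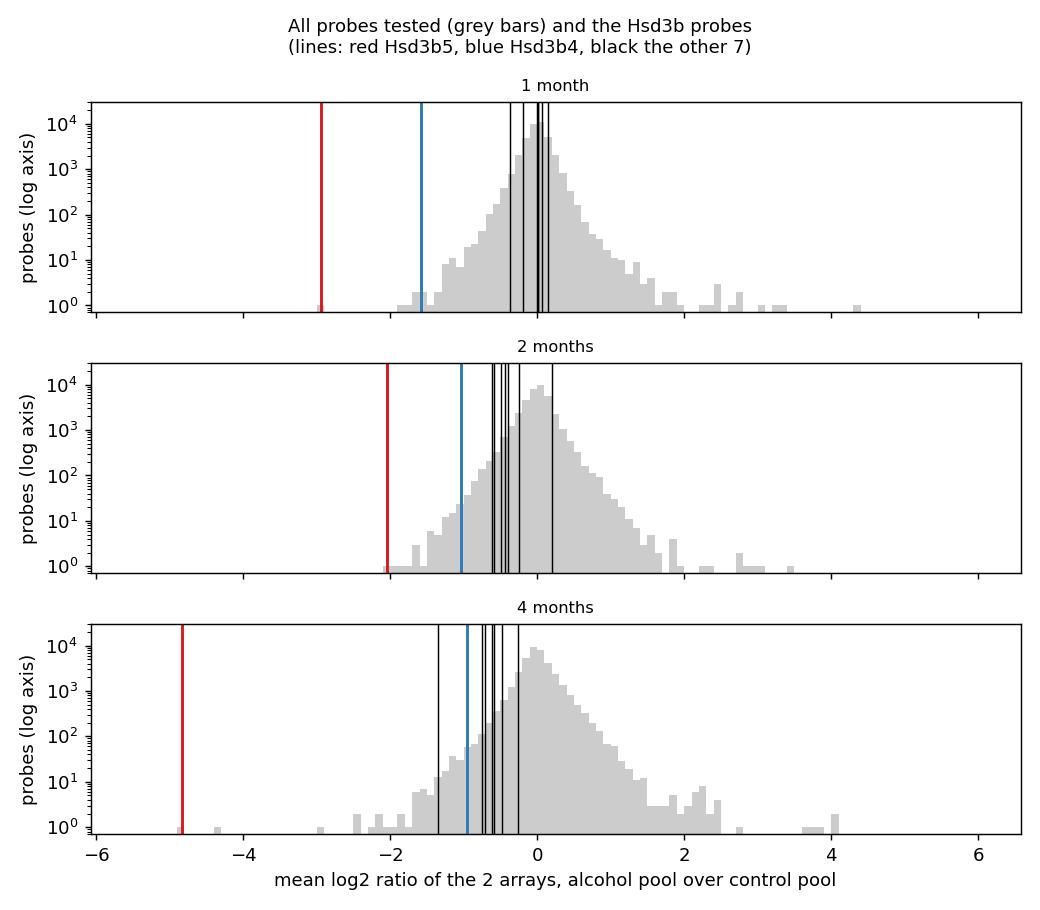
Number of probes (y axis, log scale) by averaged log2 ratio of alcohol over control (x axis, bins of equal width) for the 37922 probes above background at least once, at 1, 2 and 4 months. Vertical lines are the 9 Hsd3b probes, in red for Hsd3b5 and in blue for Hsd3b4. Hsd3b5 is the leftmost probe in each panel, at -2.93, -2.04 and -4.83, and at 4 months all 9 lines lie left of 0.

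Only 3 probes of the array (0.00791%) were at least 2-fold lower at all 3 months, namely Hsd3b5, Cyp7b1 and Obp2a. Cyp7b1, the oxysterol hydroxylase that also breaks down dehydroepiandrosterone, had log2 ratios of -1.55, -1.42 and -1.64. Obp2a, an odorant-binding protein, had -1.18, -1.44 and -4.34, but at 1 month it was well above background in 0 of 2 alcohol and 1 of 2 control channels, so its place among the 3 probes is uncertain. Hsd3b4 and Hsd3b6 were among the 2.38% of all probes with all 6 arrays below 0, as was Hsd3b5.

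The genes beside the chromosome 3 stretch had no such ratios. Among the 12 annotated places on each side, 8 genes had a probe, and 0 of these 8 were past 2-fold at any month. Their log2 ratios lay between -0.21, for Phgdh of serine synthesis at 1 month, and 0.29, for the lectin gene Reg4 at 4 months.

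The enzymes around the Hsd3b step were taken from lists of steroid genes. Of 10 measured genes of steroid hormone synthesis, 0 were past 2-fold at any month, and their median log2 ratios were 0.086, 0.034 and -0.081. Fdx1, the ferredoxin that passes electrons to mitochondrial steroid enzymes, had the largest mean ratio of them, with -0.026, -0.62 and -0.39, and Por, the reductase that serves microsomal ones, had 0.28, 0.046 and 0.37. Cyp17a1, which acts on the same precursors as the Hsd3b dehydrogenases, had 0.39, 0.047 and 0.078, Cyp11a1, which makes pregnenolone, 0.22, 0.35 and -0.15, and Cyp11b2, the aldosterone synthase, -0.25, 0.091 and -0.11. Of 24 measured genes of steroid breakdown in liver, 2, 1 and 1 were at least 2-fold lower at 1, 2 and 4 months and 0 were 2-fold higher, with medians of 0.043, -0.17 and -0.046. Beside Cyp7b1, the 2-fold lower gene at 1 month was Srd5a1, the 5-alpha reductase that makes dihydrotestosterone, with -1.01, -0.61 and 0.062. Hsd17b6, which acts on the androgen metabolites downstream of dihydrotestosterone, had -0.42, -0.79 and -0.067. The glucuronosyltransferases Ugt2b1 and Ugt2b5 had means from -0.56 to -0.17, with 4 of 6 arrays below 0 for each, and at 2 and 4 months their arrays had opposite signs. The median of the list was thus near 0 at 1 and 4 months, when Hsd3b5 was furthest from it.

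Outside the Hsd3b family the 3 months were used as replicates, and limma, fitted on all probes, tested whether the 3 averaged log2 ratios differed from 0. After Benjamini-Hochberg adjustment limma called 0 of 37922 probes (0.0%), with a smallest adjusted p of 0.106, and 7.98% of probes (3028) had an unadjusted p below 0.05. Without limma's moderation of the variance 0 probes were called as well, and 2247 had an unadjusted p below 0.05. No list gene below therefore passed the adjusted test, and lists are given by counts.

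Hsd3b5 is a gene of the male liver, so the genes that differ between male and female liver were set beside it. Of 22 measured male-predominant genes other than Hsd3b5, 21 were above background in every channel. In alcohol 6, 1 and 6 of the 22 were at least 2-fold lower at 1, 2 and 4 months, and 0 were 2-fold higher. The shares of all probes at least 2-fold lower were 0.0949%, 0.182% and 0.338%. The 6 at 1 month include Moxd1 (-1.90), above background in 7 of 12 channels, and Gstp1 (-1.20 with an SD of 0.91 between its 2 arrays), so both are uncertain. The median log2 ratios of the list were -0.48, -0.27 and -0.32, and 8 of 22 had all 6 arrays below 0, against 2.38% of all probes. An unadjusted limma p below 0.05 was found for 14 of the 22, all 14 with a lower mean in alcohol, against 7.98% of all probes in either direction. This test used the dye-averaged ratios, so it took no account of arrays that disagreed. Among the 14, Serpina1e had 3 arrays below and 3 above 0, and Mup1, Ugt2b1 and C8b each had 4 of 6 below 0. The genes with the largest mean ratio beside Cyp7b1 were Mup3, a major urinary protein (-0.89, -0.77 and -2.23), Slco1a1, an organic anion transporter (-1.75, -0.50 and -1.11), C6, a complement component (-1.31, -0.70 and -1.23), and Selenbp2, a selenium-binding protein (-1.61, -0.97 and -0.36). All 6 arrays were below 0 for Cyp7b1, Mup3, C6 and Selenbp2 and 5 of 6 for Slco1a1. Mup3 was furthest from 0 at 4 months, as Hsd3b5 was, but a further probe of Mup3 had -0.12, -0.44 and -0.22.

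Of 23 measured female-predominant genes, 19 were above background in every channel. In alcohol 5, 6 and 10 of the 23 were at least 2-fold higher at 1, 2 and 4 months, and 0 were 2-fold lower. The shares of all probes at least 2-fold higher were 0.158%, 0.243% and 0.464%. The median log2 ratios of the list were 0.39, 0.23 and 0.72, and 10 of 23 had all 6 arrays above 0, against 1.49% of all probes. An unadjusted limma p below 0.05 was found for 11 with a higher and 1 with a lower mean, against 7.98% of all probes in either direction. The cytochrome P450 genes Cyp2b10, Cyp2b13 and Cyp2b9, which metabolize drugs and steroids, were past 2-fold at all 3 months, with 3.27, 2.77 and 4.03 for Cyp2b10. Cyp2b13 had 3.40, 2.88 and 2.36, but its further probe had 1.23, 0.17 and 0.19. Cyp2b9 had 2.73, 1.11 and 1.87, and its further probe had 4.33, 3.43 and 3.88. Cyp3a16 had 0.84, 1.31 and 2.44 and Cyp3a44 had 0.84, 1.22 and 2.28, so both were highest at 4 months. The 6 genes at least 2-fold higher at 2 months were Cyp2b10, Cyp2b13, Cyp2b9, Cyp3a16, Cyp3a44 and Cyp3a41a (1.14), all cytochrome P450 genes. Cyp2b10 is also known as a target of the drug-sensing receptor CAR.

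**Figure D4:**
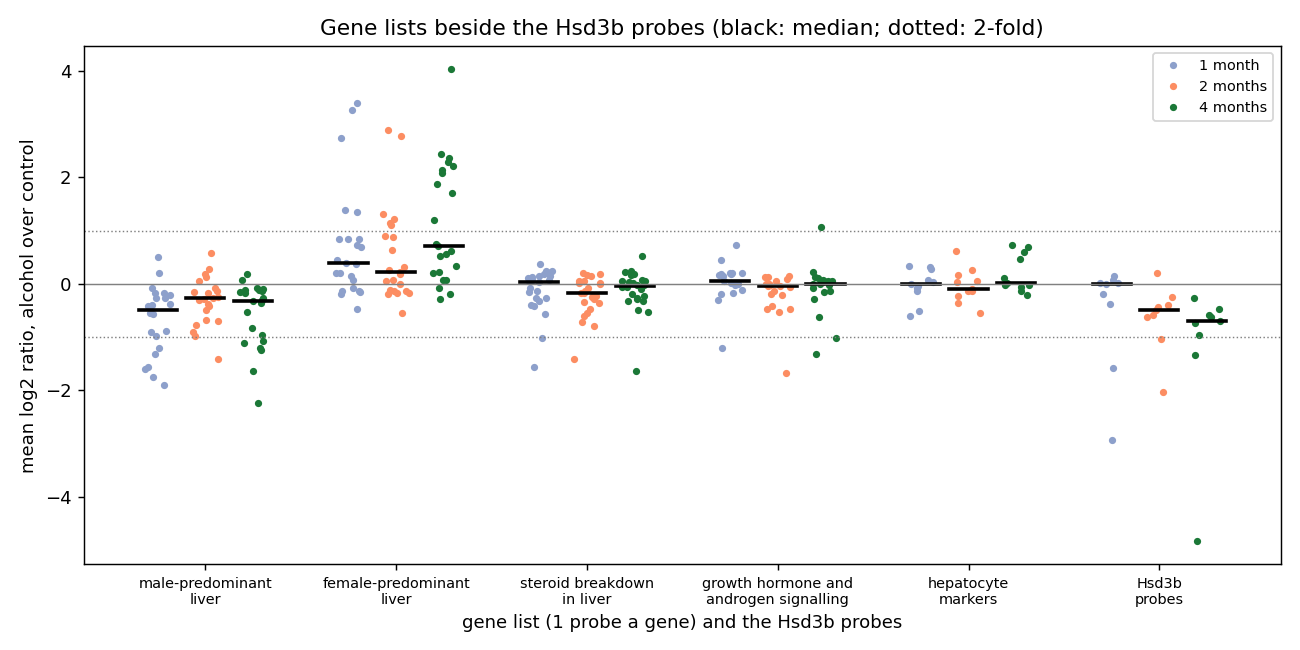
Averaged log2 ratio of alcohol over control (y axis) for the genes of 5 lists, 1 probe a gene, and for the 9 Hsd3b probes (x axis), at 1, 2 and 4 months. Each point is a gene or probe, black bars are medians and dotted lines mark 2-fold. The male-predominant medians lie between -0.48 and -0.27 and the female-predominant ones between 0.23 and 0.72, while the hepatocyte marker medians lie between -0.10 and 0.016.

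Growth hormone, through its receptor and STAT5B, and androgens set the sex-dependent pattern of the mouse liver. Of 19 genes of these signals, 0, 0 and 1 were 2-fold higher and 1, 1 and 2 were 2-fold lower at 1, 2 and 4 months, with medians of 0.054, -0.046 and 0.0057. Ghr, the growth hormone receptor, had 0.054, -0.41 and -0.63. The SD between its 2 arrays was 0.50 at 2 months and 0.79 at 4 months, so these means are imprecise. The 4 further probes of Ghr had from -0.67 to -0.28 at 2 months and from -0.64 to -0.27 at 4 months. Bcl6, a repressor that is higher in male liver, had -1.21, -0.22 and 0.031, and Foxa2, a liver transcription factor, had 0.21, -0.47 and -1.01. Lepr, the leptin receptor and the one 2-fold higher gene of the list, had 0.45, -0.043 and 1.07, but its further probe had 0.48 at 4 months. Socs3, an inhibitor of cytokine signals, had -0.16, -0.47 and -0.14. Cish, a STAT5 target that was named after its values were seen because it had the lowest mean ratio of the list, had -0.30, -1.67 and -1.32. At 4 months Cish was above background in 1 of 2 alcohol channels, so the last of these ratios is uncertain. The STAT5 targets Socs2 (0.022, -0.062 and 0.062) and Igf1 (-0.11, -0.031 and -0.015), chosen likewise, did not share these values. Both had 3 arrays below and 3 above 0. Their SD between the 2 arrays was 0.26 and 0.45 for Socs2 and 0.53 and 0.90 for Igf1 at 2 and 4 months, so these means near 0 are imprecise. Of 10 nuclear receptors of steroids and drugs, 0 were past 2-fold at any month, and their medians lay between 0.033 and 0.090.

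The labelled tissue was examined with marker lists. Of 11 measured hepatocyte markers 0 were past 2-fold at any month, with medians of 0.0050, -0.10 and 0.016. The markers with the largest mean ratio differed in direction. Tat, a tyrosine-degrading enzyme, had log2 ratios of 0.27, 0.61 and 0.69, Alb (albumin) 0.31, 0.035 and 0.59, and Pck1 of gluconeogenesis -0.14, 0.25 and 0.47. Apoa1, an apolipoprotein, had -0.61, -0.14 and -0.055, and Ttr (transthyretin) 0.34, -0.55 and -0.22. Several were imprecise, with an SD between the 2 arrays of 0.71 for Alb at 1 month and of 1.20 to 1.82 for Apoa1. The summed level of these markers was 8.28, 8.28 and 7.39 in the control pools and 8.21, 8.29 and 7.59 in the alcohol pools, on the log2 scale over the 75th percentile. Of 6 adrenal cortex markers, from an organ rich in Hsd3b enzymes, 0 were past 2-fold, with summed levels of 2.06, 1.83 and 2.12 in control and 2.02, 1.93 and 2.05 in alcohol pools. Of 8 kidney markers 0, 0 and 1 were 2-fold higher at 1, 2 and 4 months. The latter was Cubn, at 1.11 with an SD of 1.57 between the 2 arrays and above background in 2 of 12 channels, so this call is uncertain. For the 8 markers the summed levels lay between 2.26 and 3.24 in both groups of pools.

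Some markers of other cells did differ between the pools, but not all of a list in the same direction. Of 5 blood markers 2 were 2-fold higher in alcohol at 1 month, Hbb-b1 (1.97) and Hba-a1 (1.51) of haemoglobin. The other blood markers, Alas2, Cd74 and Ptprc, had 0.048, -0.16 and -0.096 at 1 month. The summed level of the 5 was 5.47 in the control and 6.67 in the alcohol pool. At 2 and 4 months the summed blood levels were 6.25 and 5.68 in control and 6.10 and 5.94 in alcohol pools, and 1 marker, Alas2, was 2-fold lower at 4 months. Of 14 pancreas acinar markers 4 were 2-fold higher in alcohol at 4 months, of which 1, Try5, was above background in every channel. A further probe of Pnlip, also above background in every channel, had 1.69 at 4 months, where the probe counted had 0.74. The 14 markers had a median of 0.70 and summed levels of 4.54 in control and 4.98 in alcohol. At 1 and 2 months their summed levels were 4.33 and 4.48 in control and 4.25 and 4.49 in alcohol pools. The part of these cells in the Hsd3b ratios was not tested, and in pooled tissue fewer cells of a type cannot be told apart from less RNA per cell.

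The probes most like Hsd3b5 over the 6 pools were sought among 12812 probes above background in every channel whose level spanned at least 1 log2 unit. The highest Pearson correlations of log2 levels were those of Mup3 (0.991), TC1533197 (0.970), Mup4 (0.965), ENSMUST00000098050 (0.963) and C9 (0.957), where names that are no gene symbol are those in the files. The points are 6 pools that lie on 2 slides and share their arrays in pairs, so these values describe likeness only. Mup3 had levels of 4.77, 4.33 and 4.20 in the control pools and 3.88, 3.56 and 1.97 in the alcohol pools at 1, 2 and 4 months, the same order of pools as Hsd3b5 on this scale. Mup4, another major urinary protein, had log2 ratios between -1.04 and -0.21, and C9, a complement component, had -0.49, -0.82 and -1.54. Major urinary protein genes are near copies of each other, so which of them a probe measured is uncertain. The other Hsd3b probes were less like Hsd3b5, with correlations between 0.50 for Hsd3b7 and 0.86 for probe A_52_P339759 of Hsd3b2.

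**Figure D5:**
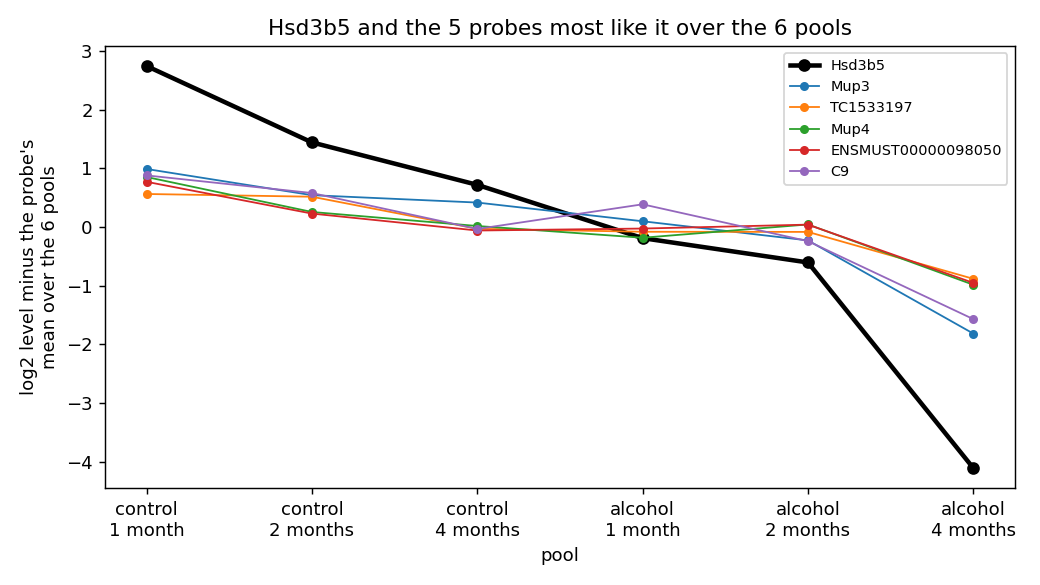
Log2 level minus the probe's own mean over the 6 pools (y axis) for Hsd3b5 and the 5 probes with the highest correlation to it, in the control and alcohol pools at 1, 2 and 4 months (x axis). Each point is a pool, as the mean of both dyes. All 6 lines are lowest in the alcohol pool of 4 months, and Hsd3b5 spans the widest range, from a level of 2.93 to one of -3.92.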

How the data were processed

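Liver RNA pools of 6 mice were measured on 6 two-colour arrays, a dye-swapped pair per month. Precision is limited by how few arrays there are. The authors deposited scanner output of Feature Extraction 9.1.1.1 with background-corrected, dye-normalized signal intensities and log10 ratios (Cy5 divided by Cy3), together with a table of log10 ratios already turned to alcohol over control. The deposited ratios were turned to log2 of alcohol over control, averaged over spots and then over the pair. Levels were log2 of the processed intensity over each channel's 75th percentile. Of 25510 probes with a RefSeq accession 22944 matched a current symbol, all 9 Hsd3b probes included. Coordinates and sequences are from RefSeq GRCm38.p6. limma 3.58.1 in R 4.3.3 tested the 3 monthly ratios of the 37922 probes above background in at least 1 channel. The procedure was also run on simulated data, whose outcome is not reported here. Python 3.11.15, pandas 2.3.3 and Biopython 1.88 served for the rest.

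The members, 11 gene lists and tests were chosen with earlier results of these data known. A list gene was taken from its probe with the highest mean signal. Named were all Hsd3b probes, at most 5 genes a list with the largest mean ratio, list genes past 2-fold in the same direction at all months, and the 5 probes most like Hsd3b5. Alternatives were normexp with loess, the deposited table, error-weighted averaging, median centring, Aquantile single channels, other thresholds and filters, and leaving out arrays or months.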

Additional observations from a re-analysis of the deposited data

Results flagged for a closer look

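For Hsd3b3 both arrays of a month were above 0 at 1 month and below 0 at the later months. Its averaged log2 ratios of alcohol over control were 0.063 at 1 month, -0.49 at 2 months and -0.75 at 4 months. For Hsd3b7 both arrays were above 0 at 1 and 2 months, with averages of 0.15 and 0.20, and below 0 at 4 months, with -0.26. Neither difference between months was tested, since each month has 1 pair of pools, and the arrays of 1 month lie on another slide than those of 2 and 4 months.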

How the results depend on the processing

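None of the 27 monthly Hsd3b ratios changed sign with the deposited table, error-weighted averaging, median centring, Aquantile single channels or normexp with loess. With normexp the Hsd3b5 ratio at 4 months was -4.53, and Hsd3b4 at 2 months was no longer past 2-fold. Without the array with alcohol in Cy5 7 of 27 ratios were 2-fold lower, and without that in Cy3 5 were, against 6 on average. On single arrays at 1 month the sign changed for Hsd3b1 and the 3 probes of Hsd3b2. The number of all probes at least 2-fold lower was 36, 69 and 128 at 1, 2 and 4 months. It became 21, 20 and 68 with normexp, and 246, 556 and 609 at 1.5-fold. Among probes above background in every channel it was 24, 24 and 46. On single arrays it was 70 to 84, 369 to 518 and 419 to 522. limma called 9 probes after normexp with loess (7 higher, 2 lower) and 6 among probes above background in every channel (5 higher, 1 lower). With each month left out it called 0, with 1563 to 4334 unadjusted. Under these 2 settings the list genes called were Cyp7b1 (limma adjusted p of 0.0054 and 0.0067), Cyp2b10 (0.0313 and 0.0268) and Cyp2b13 (0.0147 and 0.0261). Of 54 levels 36 moved by more than the spread of the dyes with the channel median as reference, by at most 0.37 (Hsd3b5 in alcohol was then higher at 2 than at 1 month by 0.14), and 19 with Aquantile, by at most 0.44. Of the 5 probes most like Hsd3b5, 3 were shared by rank correlation and 2 with Aquantile levels. The cause of these changes was not tested.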
